A study of Homo sapiens with 12 samples.

Results

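The cytosolic ribosomal proteins are described here across ACSL5 knockdown and palmitic acid treatment of breast cancer cells. They were taken as the rows of the gene table whose symbol has the RPL, RPS, RPLP or RPSA form, without kinases and pseudogenes. The table held 57730 rows, and 87 symbols matched. Of these, 2 are annotated as processed pseudogenes (RPL12L3 and RPS10L) and were left out, which leaves 85 members, 52 of the large (60S) and 33 of the small (40S) subunit. All members but RPL3L and RPL10L, the paralogs of RPL3 and RPL10, passed the filter on low counts, so 83 were tested among 14706 genes.

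The ribosome is built from ribosomal RNA and one copy of most of these proteins, each encoded by a gene of its own, and a protein made in excess of its partners is degraded. Most of their mRNAs begin with a terminal oligopyrimidine (TOP) tract, a C followed by a run of pyrimidines, through which the kinase mTOR and the RNA-binding protein LARP1 control translation and stability. A few proteins have a paralog, a second gene whose product can take their place. Many of the genes carry small nucleolar RNAs (snoRNAs), guides for the modification of ribosomal RNA, in their introns.

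Poly(A) RNA was sequenced from LM3 cells, which the labels give as MDA-MB-231 breast cancer cells (a triple-negative line) derived from lung metastases. There were 3 libraries in each of 4 groups, which are shACSL5+PA (ACSL5 knockdown with palmitic acid), shACSL5 (ACSL5 knockdown alone), shControl+PA (control hairpin with palmitic acid) and shControl (control hairpin alone). All groups grew in DMEM with serum. ACSL5 is an acyl-CoA synthetase, an enzyme that activates long-chain fatty acids such as palmitic acid. The sources used here give neither the hairpin sequence, nor whether a line was a clone, nor how much palmitic acid was added, for how long or in which vehicle. A vehicle and the fatty acid itself cannot be told apart, and neither can separate cultures and technical repeats, so the p-values cover the spread between these libraries alone.

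Totals ran from 16788694 to 21814751 counts per library. ACSL5 stood at 14.9, 13.3 and 17.6 CPM in shACSL5+PA, at 10.9, 10.2 and 12.5 CPM in shACSL5, at 189, 194 and 190 CPM in shControl+PA and at 142, 143 and 145 CPM in shControl (CPM, counts scaled to library size), so no library went against its label. VIM, CD44 and EGFR were abundant, as known for this line, and ERBB2 averaged 69.9 CPM. ESR1, PGR, PTPRC, CD3E, SFTPC and SCGB1A1 lay between 0 and 0.439 CPM. CD14, PECAM1, CDH5 and SFTPB, from the same list of genes expected near 0, are not reported here, so the check covers only part of that list. For the members, replicate 3 of shControl+PA and replicate 1 of shACSL5+PA stood above their groups, with median deviations of 0.05 on the log2 scale in each, against -2e-04 and -0.0023 over all genes. Among members with a coding sequence under 450 nt these deviations were 0.10 and 0.08, and the short 40S gene RPS29 had 362, 231 and 226 CPM in shACSL5+PA and 223, 207 and 340 CPM in shControl+PA. Counts of members are therefore also given without these libraries.

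RefSeq sequences around the annotated start (GRCh38.p14) were matched to 67 members. Of these, 43 (64.2%) had a TOP tract at the start, taken as a C at the first transcribed base followed by at least 4 bases that are each C or T, on the gene's own strand, against 1429 of 35116 RefSeq promoters (4.07%). With the tract allowed to begin up to 5 bases away, the shares were 76.1% and 21.1%. The 15 bases before and the 15 bases from the start are shown for members on which the results turn, with the tract in capitals. RPL12, RPS27, RPLP0 and RPL27 rose most with the knockdown among matched members, RPL10, RPL3, RPS12 and RPL27A were not called higher, and RPL26 and RPS27 stand beside their paralogs RPL26L1 and RPS27L.
RPL12, chr9:127451392-127451421, minus strand: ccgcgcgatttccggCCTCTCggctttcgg
RPLP0, chr12:120201097-120201126, minus strand: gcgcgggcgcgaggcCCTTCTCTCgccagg
RPL27, chr17:42998404-42998433, plus strand: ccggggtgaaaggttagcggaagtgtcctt
RPL10, chrX:154398050-154398079, plus strand: tttttccactctcagaaatatacgtctgtc
RPL3, chr22:39319609-39319638, minus strand: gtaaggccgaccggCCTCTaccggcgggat
RPS12, chr6:132814554-132814583, plus strand: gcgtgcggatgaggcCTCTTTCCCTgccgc
RPL27A, chr11:8682777-8682806, plus strand: ttggcgaaggccttcCTTTTTCgtctgggc
RPS27, chr1:153990747-153990776, plus strand: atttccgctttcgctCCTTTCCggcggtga
RPS27L, chr15:63157463-63157492, minus strand: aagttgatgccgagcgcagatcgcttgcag
RPL26, chr17:8383179-8383208, minus strand: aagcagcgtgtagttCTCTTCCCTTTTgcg
RPL26L1, chr5:172958714-172958743, plus strand: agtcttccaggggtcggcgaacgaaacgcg
In RPL3 the tract begins 1 base before the annotated start. RPL27, RPL10, RPS27L and RPL26L1 have no such tract within 5 bases of it, which says only that these letters are not in this window. Tracts thus stand before members that rose (RPL12, RPLP0) and members that were not called higher (RPS12, RPL27A).

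Ribosomal protein transcripts took a larger share of the counts in the 3 other groups than in shControl. The 85 members made up 6.63, 6.33 and 6.41% of all counts in shACSL5+PA, 6.40, 6.40 and 6.49% in shACSL5, 5.88, 5.89 and 6.15% in shControl+PA, and 5.25, 5.31 and 5.32% in shControl. The shControl libraries lay lowest and apart from all others, the shControl+PA libraries lay between, and the knockdown groups overlapped each other. The means were 6.46 ± 0.155% in shACSL5+PA, 6.43 ± 0.052% in shACSL5, 5.97 ± 0.153% in shControl+PA and 5.29 ± 0.0379% in shControl (SD, n = 3 each). The 40S members alone took 2.42, 2.41, 2.19 and 1.92% in the same order of groups, and the 60S members 4.04, 4.02, 3.78 and 3.37%. The 817 rows named as ribosomal protein pseudogenes had means in the same order of groups, at 0.112, 0.108, 0.101 and 0.0908% of counts. Only the shControl libraries stood apart there, and replicate 3 of shControl+PA (0.113%) lay above every shACSL5 library (0.106 to 0.11%). In such bulk RNA, a different mix of cells and a different level per cell cannot be told apart.

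**Figure D1:**
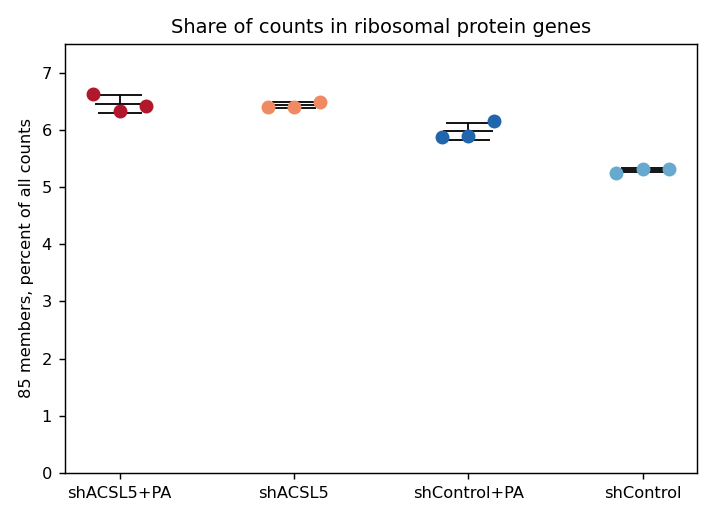
Percent of all counts in the 85 members (vertical axis, from 0) in each of the 12 libraries, by group; points are libraries, lines the mean and SD of 3. The knockdown libraries lie at 6.33 to 6.63%, the shControl+PA libraries at 5.88 to 6.15% and the shControl libraries at 5.25 to 5.32%.

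The order of the groups was shared by most members. Of the 83 tested, 80 had their lowest mean level in shControl, and the highest mean was in shACSL5+PA for 48, in shACSL5 for 25 and in shControl+PA for 10. The exceptions to the lowest place were RPL10, lowest in shACSL5, RPL3, lowest in shACSL5+PA, and RPL39L, lowest in shControl+PA, which are named after their values were seen.

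**Figure D2:**
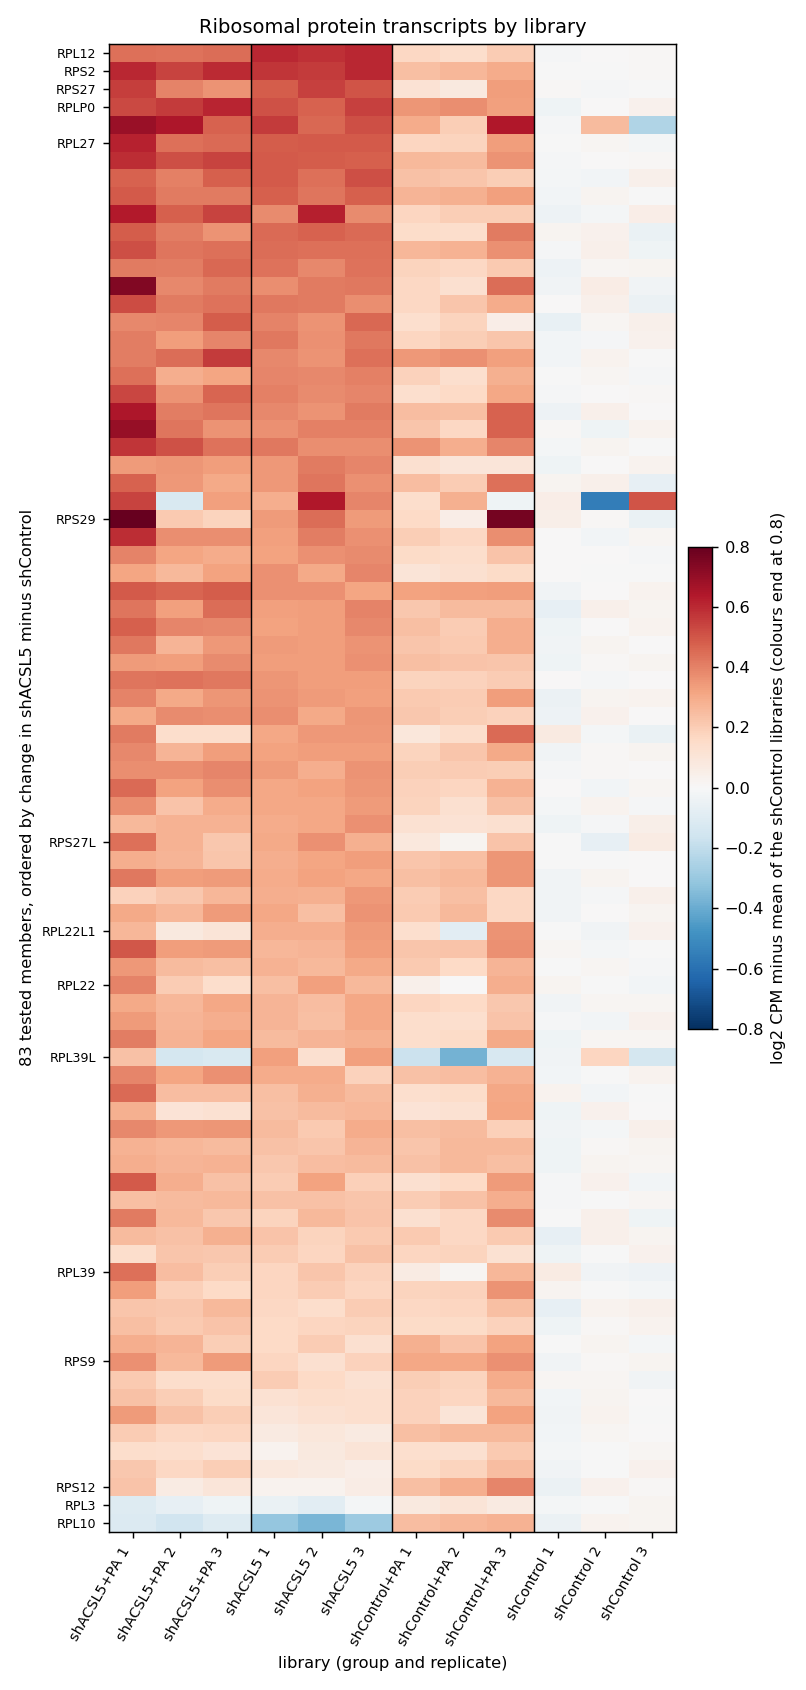
The 83 tested members (rows, ordered by the change in shACSL5 minus shControl) in the 12 libraries (columns) as log2 CPM minus the mean of the 3 shControl libraries, red above and blue below 0, with colours that end at 0.8. Nearly all rows are red outside shControl, RPL10 at the bottom is blue in the knockdown groups, and RPS29 is darkest in the 2 libraries that stand above their groups; names stand beside 15 of the rows that the text describes.

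The knockdown without palmitic acid, shACSL5 against shControl, gave the widest rise. By edgeR's quasi-likelihood test (adjusted p under 0.05 over all genes), 79 of 83 members were called higher and 1 lower, against 29.7% of all tested genes higher and 32.6% lower. The median log2 change was 0.33 over the members (1.26-fold) and -0.02 over all genes. The rise held in both subunits, with 32 of 33 40S and 47 of 50 60S members higher. With a change of at least 0.25 required as well, 61 were higher and 1 lower, against 23.2% and 27% of all genes. All 3 shACSL5 libraries lay above all 3 shControl libraries in 78 members and below in 1, against 31.6% and 34.5% of all genes.

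RPL12 and RPLP0, 2 of the 4 proteins of the stalk, an arm of the 60S subunit that recruits translation factors, were among the members with large rises. RPL12, which joins the stalk to ribosomal RNA, stood at 1117, 1110 and 1119 CPM in shACSL5+PA, at 1248, 1233 and 1246 CPM in shACSL5, at 920, 908 and 946 CPM in shControl+PA and at 816, 823 and 827 CPM in shControl. The 4 groups did not overlap, shACSL5 was highest, and the log2 change in shACSL5 minus shControl was 0.60 ± 0.02, adjusted p 4.97e-16 (± SE, here and below). RPLP0, the core of the stalk, stood at 2781, 2841 and 2943 CPM in shACSL5+PA, at 2744, 2670 and 2812 CPM in shACSL5, at 2460, 2498 and 2416 CPM in shControl+PA and at 1882, 1929 and 1976 CPM in shControl. The knockdown groups overlapped each other and lay above both control groups, with a log2 change of 0.51 ± 0.02, adjusted p 3.24e-14. The acidic stalk proteins RPLP1 and RPLP2 rose by 0.39 ± 0.05 (adjusted p 1.16e-06) and 0.16 ± 0.03 (adjusted p 0.000277), against quartiles of 0.24 and 0.39 over the members, so RPLP1 stood at the upper quartile and RPLP2 below the lower one.

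In the 40S subunit RPS2, a protein at the mRNA entry channel, stood at 2938, 2813 and 2926 CPM in shACSL5+PA, at 2878, 2847 and 2938 CPM in shACSL5, at 2292, 2325 and 2380 CPM in shControl+PA and at 1931, 1929 and 1948 CPM in shControl. The knockdown groups overlapped each other and lay above shControl+PA, which lay above shControl, and the log2 change in shACSL5 minus shControl was 0.58 ± 0.02, adjusted p 3.13e-16. RPS27, a zinc-binding 40S protein with the tract shown above, had 610, 637 and 618 CPM in shACSL5, against 439, 432 and 435 CPM in shControl (log2 change 0.51 ± 0.05, adjusted p 6.03e-09). RPL27, a 60S protein without a tract in the window shown, had 814, 816 and 815 CPM in shACSL5, against 580, 588 and 575 CPM in shControl (log2 change 0.49 ± 0.04, adjusted p 3.72e-10). In both genes the groups stood apart.

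Members known for further roles rose too. RPL5 and RPL11, which carry 5S ribosomal RNA and bind MDM2 when ribosome assembly fails, rose by 0.31 ± 0.03 and 0.26 ± 0.05 (adjusted p 1.46e-09 and 3.52e-05). RPS27A, made as a fusion with ubiquitin, rose by 0.44 ± 0.03, RPSA, also known as a laminin receptor, by 0.42 ± 0.02, and RPS6, a substrate of S6 kinase, by 0.24 ± 0.03 (adjusted p 4.06e-11, 4.39e-13 and 1.5e-08).

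The members not called higher were RPL10, RPL3, RPS12 and RPL27A, the last 2 named after their values were seen. RPL10, a 60S protein near the peptidyl transferase centre, stood at 851, 825 and 854 CPM in shACSL5+PA, at 738, 710 and 749 CPM in shACSL5, at 1087, 1099 and 1111 CPM in shControl+PA and at 885, 935 and 929 CPM in shControl. No groups overlapped, and the log2 change in shACSL5 minus shControl was -0.32 ± 0.03, adjusted p 4.66e-10, the 1 fall among the members. RPL3, a 60S protein at the same centre, stood at 1853, 1898 and 1938 CPM in shACSL5+PA, at 1913, 1873 and 1971 CPM in shACSL5, at 2100, 2139 and 2093 CPM in shControl+PA and at 1965, 1983 and 2019 CPM in shControl. Its shACSL5 and shControl libraries overlapped, the log2 change was -0.05 ± 0.02, adjusted p 0.0504, and it was called lower with library sizes alone (adjusted p 0.00305), with the replicate block (0.0341), and without replicate 3 of shACSL5, replicate 1 of shControl, replicate 1 or 3 of shACSL5+PA or replicate 3 of shControl+PA (adjusted p 0.0118 to 0.0488). RPS12, a 40S protein, had 544, 544 and 556 CPM in shACSL5, against 517, 547 and 538 CPM in shControl, with overlap (log2 change 0.04 ± 0.04, adjusted p 0.419). RPL27A, a 60S protein, had 385, 399 and 407 CPM in shACSL5, against 375, 377 and 383 CPM in shControl, with no overlap but no call (log2 change 0.07 ± 0.03, adjusted p 0.0525).

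The RPL10 count has a limit of its own. RPL10 (GRCh38, chromosome X, 154389955 to 154409168, plus strand) shares 76.2% of its 50-base stretches with other genes, and 52.7% of its exonic bases lie opposite exons of other genes, among them DNASE1L1. The stretches were matched on both strands, so both percentages can cover the same bases. The strand setting of the counting is unknown here, so reads of RPL10 and DNASE1L1 cannot be told apart. DNASE1L1 had 27.9, 25.5 and 28.3 CPM in shACSL5, against 17.1, 18.7 and 18.9 CPM in shControl, and was called higher (log2 change 0.58 ± 0.08, adjusted p 2.11e-06), in the direction opposite to RPL10.

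**Figure D3:**
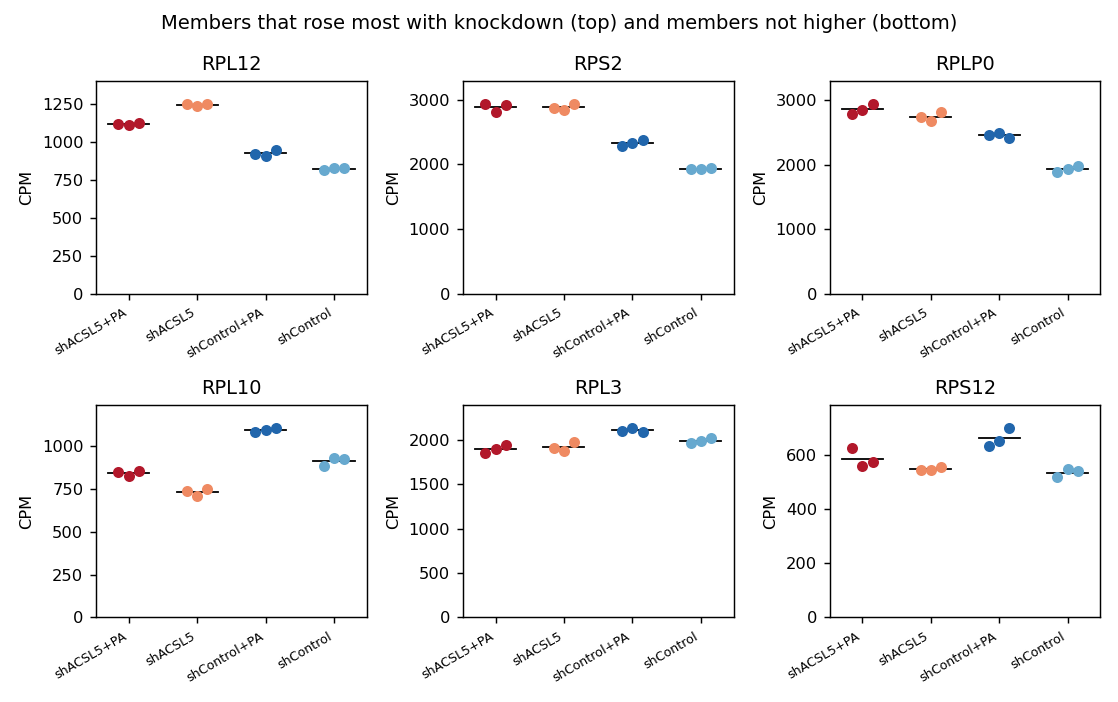
CPM (vertical axes, from 0) of 6 members by group; points are libraries and lines the mean of 3. RPL12, RPS2 and RPLP0 (top) lie lowest in shControl at 816 to 827, 1929 to 1948 and 1882 to 1976 CPM, while RPL10, RPL3 and RPS12 (bottom) lie highest in shControl+PA.

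Medians of the change in shACSL5 minus shControl were close across features that the choice of members did not use. The median was 0.32 in the 43 members with a TOP tract at the start (41 called higher). It was 0.34 in the 23 tested members without a tract at that exact base (21 called higher). Some of these, RPL3 among them, have a tract within 5 bases, so the split does not separate members with and without a tract. It was 0.33 where under 10% of the 50-base stretches occur in other genes (20 of 21 called higher) and 0.35 where at least 50% do (25 of 26). It was 0.33 for coding sequences under 450 nt (38 of 40) and 0.32 for longer ones (40 of 42). Members with an annotated snoRNA gene inside had a median of 0.31 (24 of 28 called higher and 1 lower), and members with none had 0.34 (54 of 54). RPL10, RPL3, RPS12 and RPL27A each hold at least 1 such gene, a split noticed after the values were seen.

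Palmitic acid in control cells, shControl+PA against shControl, went with a rise of most members that was smaller in its median. Of 83 members 76 were called higher and 0 lower, against 15.1% of all genes higher and 13.5% lower, and 0 were lower at an unadjusted p under 0.05 (18.6% of all genes) or by DESeq2. The median log2 change was 0.22 over the members and -0.00 over all genes. With at least 0.25 required, 22 were higher and 0 lower (6.71% and 9.02% of all genes), and the libraries stood apart upward in 76 and downward in 0 (21.1% and 20.8% of all genes). By coding length, 34 of 40 members under 450 nt and 42 of 42 longer ones were called higher. Without replicate 3 of shControl+PA and replicate 1 of shACSL5+PA, 75 members were called higher. That fit called 24.1% of all genes, both directions together, and DESeq2 called 27.4%.

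RPLP0 had the largest rise in this comparison among called members without overlap, at 2460, 2498 and 2416 CPM in shControl+PA, against 1882, 1929 and 1976 CPM in shControl (log2 change 0.35 ± 0.02, adjusted p 3.15e-10). RPS26, a 40S protein at the mRNA exit, had 253, 241 and 259 CPM in shControl+PA, against 195, 200 and 197 CPM in shControl (log2 change 0.35 ± 0.04, adjusted p 2.45e-07). Both genes were higher in every shControl+PA library than in any shControl library. RPS9 and RPL6, an early-binding 40S protein and a 60S protein, rose by 0.33 ± 0.03 and 0.33 ± 0.02, and RPLP1 by 0.32 ± 0.05.

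The members not called higher with the knockdown were called higher here. RPL10 rose by 0.26 ± 0.03, RPS12 by 0.31 ± 0.04, RPL27A by 0.16 ± 0.03 and RPL3 by 0.09 ± 0.02 (adjusted p 1.25e-07, 2.42e-06, 0.000397 and 0.00597). The RPL3 call was lost with library sizes alone (adjusted p 0.196). RPS27 rose by 0.18 ± 0.05, a call lost with library sizes alone (adjusted p 0.0559) and without replicate 3 of shControl+PA (0.0953). The 7 members without a call included RPL22, RPL22L1, RPL39, RPL39L, RPS27L and RPS29.

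Palmitic acid in knockdown cells, shACSL5+PA against shACSL5, moved few members. Of 83, 11 were called higher and 2 lower, against 12.1% of all genes higher and 9.78% lower, so the members' 13.3% and 2.41% were near or under the background. The median log2 change was 0.04 over the members and 0.01 over all genes. With at least 0.25 required, 0 were called in either direction (6.32% and 5.45% of all genes), and the libraries stood apart upward in 23 and downward in 4 (18.8% and 16.6% of all genes). At an unadjusted p under 0.05, 20 members (24.1%) were higher and 4 (4.82%) lower, against 18.6% and 15.1% of all genes. The higher count was 6 with upper quartile factors and 20 without a filter on low counts. In those fits 21.3% of all genes and 12.9% of 25721 genes were called, both directions together. The lower count was 1 without replicate 2 of shACSL5+PA or replicate 3 of shACSL5, 3 without replicate 2 of shACSL5, 4 without replicate 1 of shACSL5+PA, and 9 without that library and replicate 3 of shControl+PA. Over all genes these fits without libraries called 16 to 18.5%, both directions together.

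RPL10 had the largest rise here, with 851, 825 and 854 CPM in shACSL5+PA, against 738, 710 and 749 CPM in shACSL5 (log2 change 0.20 ± 0.03, adjusted p 9.75e-06). RPS9 had 523, 487 and 516 CPM in shACSL5+PA, against 459, 445 and 462 CPM in shACSL5 (log2 change 0.16 ± 0.03, adjusted p 0.000664). RPL6 and RPL23A, a 60S protein at the exit tunnel, rose by 0.13 ± 0.02 and 0.12 ± 0.03 (adjusted p 0.00018 and 0.00258). These 4 genes showed no overlap between the groups. RPL41 and RPS26 rose by 0.14 ± 0.04 and 0.12 ± 0.04 (adjusted p 0.0161 and 0.0208), calls lost without replicate 1 of shACSL5+PA (adjusted p 0.11 and 0.126) and with upper quartile factors (0.0531 and 0.0663). The RPL41 call was also lost without replicate 1 of shACSL5 (adjusted p 0.066), and the RPS26 call with library sizes alone (0.0561) and without replicate 2 of shACSL5+PA or replicate 2 or 3 of shACSL5 (0.059 to 0.0653). RPL12 was lower in all 3 shACSL5+PA libraries (log2 change -0.16 ± 0.02, adjusted p 2.42e-05). RPL13A, a 60S protein that also silences some mRNAs, was lower too (-0.09 ± 0.03, adjusted p 0.0214), a call lost without replicate 1 or 2 of shACSL5+PA or replicate 3 of shACSL5 (adjusted p 0.07 to 0.122).

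The difference between these palmitic acid responses was tested as an interaction, the change with palmitic acid under the ACSL5 hairpin minus the change under the control hairpin. It was negative in all 83 members with TMM factors, while RPL39 turned to 0.0115 with library sizes alone, and RPL39 and RPL39L turned when single libraries were left out. The median was -0.19 over the members and 0.01 over all genes. Of the members 59 were called lower and 0 higher, against 7.39% of all genes lower and 7.15% higher, and 0 were higher at an unadjusted p under 0.05 (14.2% of all genes) or by DESeq2. With at least 0.25 required, 13 were lower and 0 higher (4.58% and 5.68% of all genes). By subunit, 25 of 33 40S and 34 of 50 60S members were called lower. By coding length, 21 of 40 members under 450 nt (52.5%) and 38 of 42 longer ones (90.5%) were, with medians of -0.18 and -0.19. Without replicate 3 of shControl+PA and replicate 1 of shACSL5+PA, 62 members were called lower. That fit called 11.1% of all genes, both directions together, and DESeq2 called 16.4%.

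RPL12 had an interaction of -0.32 ± 0.03, adjusted p 4.01e-07, since it was higher with palmitic acid in control cells and lower in knockdown cells. RPS13, a 40S protein, stood at 368, 363 and 351 CPM in shACSL5+PA, at 367, 374 and 379 CPM in shACSL5, at 350, 355 and 384 CPM in shControl+PA and at 300, 300 and 301 CPM in shControl. The shControl libraries lay below the 9 others, which overlapped, and the interaction was -0.32 ± 0.05, adjusted p 6.67e-05. RPS14, a 40S protein at the platform, had 880, 834 and 837 CPM in shACSL5+PA, against 873, 842 and 873 CPM in shACSL5, with overlap, while its shControl+PA libraries all lay above its shControl libraries, and the interaction was -0.32 ± 0.04, adjusted p 7.27e-06. RPLP0 had -0.29 ± 0.03, adjusted p 4.63e-06, and RPL17, at the exit tunnel, had -0.31 ± 0.07, adjusted p 0.00336. RPL37, a short 60S protein, had the lowest value (-0.33 ± 0.10, adjusted p 0.0221), but was not called by DESeq2 (adjusted p 0.102) or without replicate 2 or 3 of shACSL5+PA, replicate 3 of shControl+PA or replicate 2 or 3 of shControl (adjusted p 0.0503 to 0.071). RPL10 was among the 24 members that were not called (-0.06 ± 0.04, adjusted p 0.335).

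**Figure D4:**
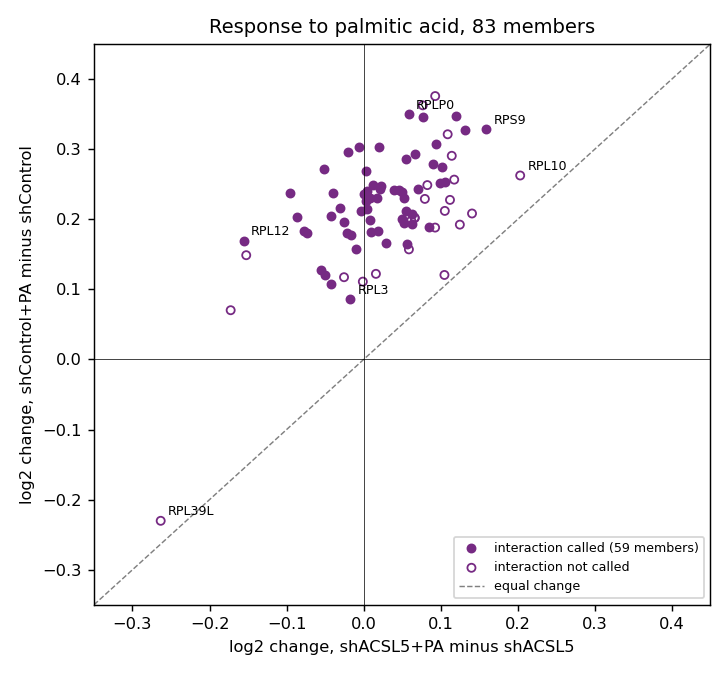
Log2 change with palmitic acid in knockdown cells (horizontal axis) and in control cells (vertical axis) of the 83 members; filled points were called in the interaction, and the dashed line marks equal change. All points lie above the line, 59 of them filled; RPL10 lies farthest right at 0.20 and RPL12 lies left of 0 at -0.16.

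The knockdown under palmitic acid, shACSL5+PA against shControl+PA, left a smaller rise than without it. Of 83 members 52 were called higher and 4 lower, against 24.4% of all genes higher and 26.1% lower, with a median log2 change of 0.13 over the members and -0.00 over all genes. With at least 0.25 required, 9 members (10.8%) were higher and 1 (1.2%) lower, both under the 16.3% and 19.9% of all genes. The libraries stood apart upward in 39 members (47%) and downward in 4 (4.82%), against 27.4% and 29.5% of all genes. Without replicate 1 of shACSL5+PA 38 were called higher, and without it and replicate 3 of shControl+PA 55 were. Over all genes these fits called 45.6 and 42.9%, both directions together.

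RPL26L1 had the largest rise, with 74, 66.3 and 69.4 CPM in shACSL5+PA, against 53.7, 54.7 and 54.6 CPM in shControl+PA (log2 change 0.36 ± 0.06, adjusted p 2.72e-05). RPS2 rose by 0.31 ± 0.02, and RPS15, a 40S protein at the decoding site, had 723, 726 and 776 CPM in shACSL5+PA, against 608, 627 and 574 CPM in shControl+PA (log2 change 0.30 ± 0.04, adjusted p 3.57e-07). RPL27, RPL12 and RPS27 rose by 0.27 ± 0.04, 0.27 ± 0.02 and 0.26 ± 0.05. In these 6 genes the groups stood apart. The rises of RPL5, RPL11 and RPLP1 (0.08 ± 0.03, 0.12 ± 0.05 and 0.18 ± 0.05) were not called without replicate 1 of shACSL5+PA (adjusted p 0.151, 0.32 and 0.102), nor without replicate 1 or replicate 2 of shControl+PA (0.0539 to 0.157), and that of RPL11 was not called by DESeq2 (0.0803).

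The falls were led by RPL10, whose shACSL5+PA libraries all lay below shControl+PA (log2 change -0.38 ± 0.03, adjusted p 6.75e-11). RPS12 had 624, 558 and 572 CPM in shACSL5+PA, against 631, 652 and 700 CPM in shControl+PA (log2 change -0.18 ± 0.04, adjusted p 0.000517). RPL3 had 1853, 1898 and 1938 CPM in shACSL5+PA, against 2100, 2139 and 2093 CPM in shControl+PA (log2 change -0.15 ± 0.02, adjusted p 4.58e-06). Both genes fell with no overlap. RPL10A, a 60S protein of the L1 stalk, fell as well (-0.07 ± 0.02, adjusted p 0.022), a call lost with upper quartile factors (adjusted p 0.0719), TMM without ribosomal protein rows (0.0549), no filter on low counts (0.0944) or the 2 groups alone (0.0926), and without replicate 2 or 3 of shACSL5+PA or of shControl+PA (0.0504 to 0.08).

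**Figure D5:**
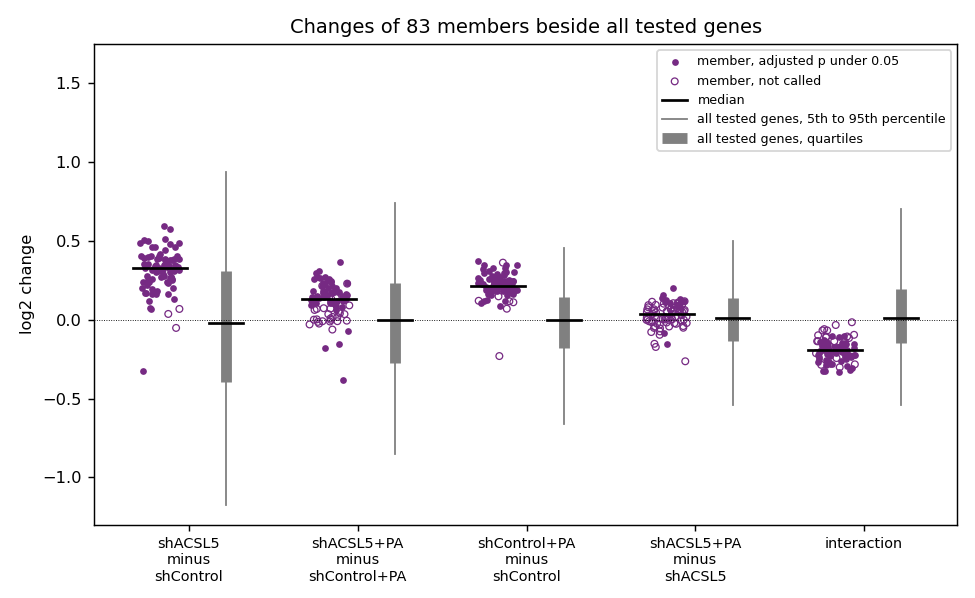
Log2 change of the 83 members (purple points, filled where called, with their median) in the 4 comparisons and the interaction, beside all 14706 tested genes (grey, thin line from the 5th to the 95th percentile, thick bar between the quartiles, with their median). The members' medians are 0.33, 0.13, 0.22, 0.04 and -0.19 from left to right, and those of all genes lie between -0.02 and 0.01.

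Levels of different genes were compared per kilobase of coding sequence, which leaves out the untranslated parts that are counted too. The median member stood at 1330 CPM per kilobase. RPL22L1 stood at 104 ± 7.3 in shACSL5+PA, 116 ± 2.58 in shACSL5, 104 ± 15.9 in shControl+PA, 93.8 ± 1.99 in shControl (mean ± SD, n = 3), while its partner RPL22 stood at 1084 ± 102 in shACSL5+PA, 1104 ± 36.2 in shACSL5, 989 ± 112 in shControl+PA, 912 ± 14.2 in shControl. Over the 4 group means RPL39L lay at 84.4 to 119 CPM per kilobase, against 2826 to 3474 for RPL39, RPL26L1 at 110 to 161, against 1468 to 1747 for RPL26, and RPS27L at 167 to 208, against 1728 to 2466 for RPS27. RPL7L1, a homologue of RPL7 that acts in making the 60S subunit, was nearer its partner at 525 to 685, against 1089 to 1321 for RPL7.

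All 5 tested paralogs were called higher in shACSL5 minus shControl, as were 79 of the 83 members and 29.7% of all genes. The log2 changes were 0.46 ± 0.06 for RPL26L1, 0.38 ± 0.03 for RPL7L1, 0.31 ± 0.07 for RPS27L, 0.30 ± 0.08 for RPL22L1 and 0.26 ± 0.11 for RPL39L. RPL39L had overlapping libraries and lost the call with library sizes alone (adjusted p 0.0678) and without replicate 1 or 3 of shACSL5, replicate 1 or 3 of shControl or replicate 1 of shControl+PA (0.0514 to 0.182). The partners RPL26 (0.23 ± 0.03), RPL7 (0.16 ± 0.03), RPL22 (0.28 ± 0.06) and RPL39 (0.19 ± 0.05) were called higher as well, and differences between paralog and partner were not tested. With palmitic acid 2 of the 5 paralogs, RPL26L1 and RPL7L1, were called higher in control cells (0.19 ± 0.06 and 0.11 ± 0.03), against 91.6% of the members and 15.1% of all genes. In knockdown cells 0 were called higher, against 13.3% of the members and 12.1% of all genes. The 2 calls in control cells were lost with library sizes alone (adjusted p 0.108 and 0.11). The RPL26L1 call was also lost with upper quartile factors (adjusted p 0.0507) and without any 1 of the shControl+PA libraries or replicate 1 or 2 of shControl (0.0546 to 0.092). RPL39L had the lowest log2 change of all members in both, -0.23 ± 0.12 in control and -0.26 ± 0.11 in knockdown cells, neither of them called (adjusted p 0.145 and 0.0924), though the second was called without replicate 1 of shACSL5+PA (0.018). RPL3L and RPL10L stood at 0 to 0.118 and 0 to 0.0592 CPM.

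Genes around the ribosome were read in lists drawn up with earlier results of these data known, and their counts stand beside the shares of all tested genes called higher and lower. Of the 4 other genes whose products sit in the ribosome, 3 were called higher and 0 lower in shACSL5 minus shControl (29.7% and 32.6% of all genes), among them FAU, which encodes RPS30 (0.53 ± 0.05), and RACK1, a scaffold on the 40S subunit (0.18 ± 0.02). The 1 without a call was RPL36AL, a copy of RPL36A (-0.07 ± 0.06, adjusted p 0.332). In shControl+PA minus shControl FAU (0.25 ± 0.05) and RACK1 (0.14 ± 0.02) were among the 3 called higher (15.1% of all genes). Under palmitic acid the knockdown raised 2, FAU (0.33 ± 0.05) among them, and lowered 2, against 24.4% and 26.1% of all genes. The 2 lowered were RPL36AL (-0.22 ± 0.06) and RACK1 (-0.06 ± 0.02). RACK1 was not called with upper quartile factors (adjusted p 0.0711), no filter on low counts (0.056) or the 2 groups alone (0.0766). Nor was it called without replicate 2 of shACSL5+PA or replicate 3 of shControl+PA (0.108 and 0.0797). In knockdown cells palmitic acid raised 0 and lowered 1, RACK1 (-0.10 ± 0.02), against 12.1% and 9.78% of all genes.

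Of 17 other mRNAs known to start with a TOP tract, 12 were called higher and 2 lower in shACSL5 minus shControl (median 0.15, against 29.7% and 32.6% of all genes), and 16 higher and 0 lower in shControl+PA minus shControl (median 0.16, against 15.1% and 13.5%). The elongation factors EEF2, EEF1G and EEF1A1 rose by 0.47 ± 0.03, 0.45 ± 0.02 and 0.24 ± 0.01 with the knockdown, and EEF2, EEF1A1 and the nucleolar chaperone NPM1 by 0.32 ± 0.03, 0.17 ± 0.01 and 0.27 ± 0.02 with palmitic acid in control cells. In knockdown cells 3 rose and 3 fell with palmitic acid (median 0.01, against 12.1% and 9.78% of all genes). The interaction was lower in 10 and higher in 0 (median -0.14, against 7.39% and 7.15%), among them EEF1A1 (-0.24 ± 0.02), EEF1G (-0.27 ± 0.03) and NPM1 (-0.26 ± 0.03). Under palmitic acid the knockdown raised 5 and lowered 7 (median -0.00, against 24.4% and 26.1% of all genes), with TPT1 at -0.34 ± 0.03 and EIF3E, a subunit of initiation factor eIF3, at -0.42 ± 0.04.

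Of 13 long noncoding snoRNA hosts with such a start, 6 were higher and 1 lower in shACSL5 minus shControl (median 0.20, against 29.7% and 32.6% of all genes), with SNHG15 at 0.72 ± 0.06, SNHG5 at 0.46 ± 0.05 and SNHG16 at 0.38 ± 0.05. With palmitic acid in control cells 10 rose and 0 fell (median 0.35, against 15.1% and 13.5%), led by SNHG1 (0.76 ± 0.05) and ZFAS1 (0.61 ± 0.07). In knockdown cells 3 rose and 1 fell (median 0.08, against 12.1% and 9.78%), with SNHG1 at 0.54 ± 0.05 and SNHG32 at -0.22 ± 0.05. The interaction was lower in 7 and higher in 0 (median -0.25, against 7.39% and 7.15%). The knockdown under palmitic acid raised 3 and lowered 5 (median -0.02, against 24.4% and 26.1%).

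Of 24 tested regulators of these mRNAs, 11 (45.8%) were higher and 6 (25%) lower in shACSL5 minus shControl (median 0.03), against 29.7% and 32.6% of all genes. LARP1, which binds TOP tracts, stood at 421, 430 and 450 CPM in shACSL5+PA, at 497, 480 and 504 CPM in shACSL5, at 397, 383 and 395 CPM in shControl+PA and at 386, 398 and 406 CPM in shControl. It was highest in shACSL5, apart from the other groups, and rose by 0.32 ± 0.03 in shACSL5 minus shControl (adjusted p 8.68e-09). MYC, a transcription factor of ribosomal genes, had 229, 221 and 234 CPM in shACSL5, against 166, 164 and 172 CPM in shControl (log2 change 0.44 ± 0.03, adjusted p 1.09e-10). In shControl+PA minus shControl MYC was not called (-0.09 ± 0.03, adjusted p 0.0661), but was called lower with library sizes alone (adjusted p 0.00449) and with upper quartile factors (0.0268). The translation repressor EIF4EBP2 rose by 1.15 ± 0.04 in shACSL5 minus shControl. DDIT4, a stress-induced inhibitor of mTOR, had log2 changes of -1.36 ± 0.06 in shACSL5 minus shControl, 0.64 ± 0.05 in shControl+PA minus shControl and 0.98 ± 0.06 in shACSL5+PA minus shACSL5, all called. SESN2, an inhibitor of mTOR that senses leucine, had 0.95 ± 0.08 and 0.85 ± 0.08 with palmitic acid in control and knockdown cells. Palmitic acid raised 5 of the 24 and lowered 1 in control cells (median 0.07, against 15.1% and 13.5% of all genes), and raised 7 and lowered 4 in knockdown cells (median 0.03, against 12.1% and 9.78%).

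A list of 9 genes was drawn up as escorts of single ribosomal proteins before assembly. It holds AAR2, known as an assembly factor of a splicing particle and not as an escort, which was left out after its values were seen (log2 change 0.57 ± 0.07 in shACSL5 minus shControl). Of the other 8, 7 were higher and 0 lower in shACSL5 minus shControl (median 0.26), against 29.7% and 32.6% of all genes, and with AAR2 8 of 9 were higher (median 0.29). GRWD1, the escort of RPL3, rose by 0.94 ± 0.05 (adjusted p 2.29e-13), while RPL3 had -0.05. PDCD2, the escort of RPS2, rose by 0.23 ± 0.04. Under palmitic acid the knockdown raised 4 of the 8 and lowered 0 (median 0.15, against 24.4% and 26.1%), among them GRWD1 (0.62 ± 0.05) and TSR2, the escort of RPS26 (0.51 ± 0.08). Palmitic acid raised 4 and lowered 0 in control cells (median 0.12, against 15.1% and 13.5%). In knockdown cells it raised 1 (12.5%) and lowered 1 (12.5%; median 0.01), near the 12.1% and 9.78% of all genes.

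The 76 mitochondrial ribosomal proteins, which build the separate ribosome of mitochondria, were read beside the cytosolic set. In shACSL5 minus shControl 57 were higher and 4 lower (median 0.31, against 29.7% and 32.6% of all genes), with MRPL12 at 0.62 ± 0.04 and MRPL24 at 0.69 ± 0.05. Under palmitic acid the knockdown raised 47 and lowered 4 (median 0.20), beside 52 and 4 of the 83 cytosolic members (median 0.13) and 24.4% and 26.1% of all genes. Palmitic acid in control cells raised 25 and lowered 0 (median 0.11), beside 76 and 0 of the cytosolic members (median 0.22) and 15.1% and 13.5% of all genes. In knockdown cells it raised 1 and lowered 3 (median 0.01), against 12.1% and 9.78% of all genes. The interaction was lower in 9 (11.8%) and higher in 1 (1.32%; median -0.09), beside 59 and 0 of the cytosolic members (median -0.19) and 7.39% and 7.15% of all genes. The difference between the cytosolic and the mitochondrial set was not tested.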

How the data were processed

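The deposited table holds raw counts per gene for 12 libraries, whole numbers as the authors made them, with no normalization. The submitters' processing notes name fastp 0.22.0, HISAT2 2.1.0, featureCounts and the GRCh38 build. Annotation release, strand setting and treatment of multiply matching reads are unknown here, so members that share sequence with pseudogenes carry that uncertainty. Groups came from the sample titles.

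Genes passing filterByExpr were scaled with TMM factors and fitted in 1 model (edgeR 4.0.16, R 4.3.3, quasi-likelihood F test), with p-values adjusted after Benjamini and Hochberg over 14706 genes and called under 0.05; the code was tested on simulated data. The SE of a log2 change is derived from the F statistic and approximate. CPM are TMM-scaled. Gene positions, coding lengths, snoRNA genes and 50-base sharing came from GENCODE 29.

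Members and lists were chosen with earlier results of these data known. Named per comparison were the 6 largest rises and falls among called members with at least 5 CPM and no overlap between groups (overlap allowed for the interaction), a fixed set of paralogs with partners, stalk, 5S and extraribosomal members, and up to 3 called genes with the smallest p from each list. Alternatives were other scalings, DESeq2 1.42.0, other filters, a replicate block, 2 groups alone, and leaving out each library. Leaving out the 2 high libraries together, and AAR2 from the list of escorts, was added after seeing the data. Some members and list genes enter the counts but are not reported here by name.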

Additional observations from a re-analysis of the deposited data

Results flagged for a closer look

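The response to palmitic acid differed between knockdown and control cells in 16 of the named members, by the direct test of the interaction. The test was edgeR's quasi-likelihood test, adjusted over all genes. The 6 lowest were named because they were called in this same interaction (RPLP0 also as a fixed member), so the count of 16 is partly set by that choice. Of all 83 tested members 59 were called lower, against 7.39% of all genes. Each value is the log2 change in shACSL5 cells minus that in shControl cells. The lowest were RPL37 at -0.33, RPL12 at -0.32, RPS13 at -0.32, RPS14 at -0.32, RPL17 at -0.31 and RPLP0 at -0.29. RPS27A stood at -0.28, RPS27 at -0.25, RPL5 at -0.23, RPS6 at -0.22, RPLP2 at -0.22, RPL26 at -0.22, RPL7 at -0.19, RPSA at -0.17, RPL7L1 at -0.15 and RPL3 at -0.10. The calls of RPL37, RPS27 and RPL3 were lost under at least 1 of the alternatives run, for RPS27 without replicate 2 of shACSL5+PA (adjusted p 0.0518) and for RPL3 with library sizes alone (adjusted p 0.0891) and without any 1 of 8 libraries (0.0548 to 0.103), while the others kept theirs under all that were run.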

How the results depend on the processing

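The members' median log2 change kept its direction under all alternatives run, at 0.30 to 0.36 for shACSL5 minus shControl, 0.10 to 0.16 for shACSL5+PA minus shControl+PA, 0.17 to 0.24 for shControl+PA minus shControl, 0.02 to 0.05 for shACSL5+PA minus shACSL5 and -0.22 to -0.16 for the interaction. Requiring a change of at least 0.25 left 9 higher and 1 lower for shACSL5+PA minus shControl+PA, 22 higher for shControl+PA minus shControl, 0 in either direction for shACSL5+PA minus shACSL5 and 13 lower in the interaction. Over all genes that rule called 16.3% higher and 19.9% lower, 6.71% higher, 6.32% higher and 5.45% lower, and 4.58% lower in the same order. For shACSL5 minus shControl 2 members were lower with library sizes alone and without the 2 high libraries, where 62.6 and 61.5% of all genes were called, both directions together. For shACSL5+PA minus shACSL5 upper quartile factors gave 6 higher and 4 lower, and no filter gave 20 higher and 4 lower. Library sizes alone gave 4 lower, and leaving out the 2 high libraries gave 9 lower. Over all genes these 4 fits called 21.3, 12.9, 21.4 and 17.4%, both directions together. The cause was not tested. With ribosomal protein rows out of the total, the share was 6.91% in shACSL5+PA, 6.88% in shACSL5, 6.36% in shControl+PA and 5.59% in shControl.

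Correlations of deviations over all tested genes were -0.0424 to 0.0804 between same-numbered libraries. The labels do not say what the numbers stand for, so whether they mark a shared culture or batch cannot be told. The replicate block gave 80 higher and 2 lower for shACSL5 minus shControl. It left the other counts of members at 52 and 4, 76 and 0, 11 and 2, and 0 and 59. Over all genes the block called 62.5, 50.9, 29.3, 22.9 and 15.4% in the same order, both directions together. Leaving out 1 library at a time gave 75 to 80 higher and 1 to 2 lower for shACSL5 minus shControl, 38 to 58 and 3 to 4 for shACSL5+PA minus shControl+PA, 71 to 78 and 0 for shControl+PA minus shControl, 8 to 12 and 1 to 4 for shACSL5+PA minus shACSL5, and 48 to 67 lower in the interaction. Over all genes these fits called 57.1 to 61.6, 45.1 to 50, 22.8 to 28.8, 16 to 21.5 and 11.1 to 14.3%, both directions together. With 1 library left out, the members' share of counts ran from 6.37 to 6.52% in shACSL5+PA and 6.40 to 6.44% in shACSL5. It ran from 5.88 to 6.02% in shControl+PA and 5.28 to 5.32% in shControl.

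Of 5154 values of named genes under alternatives, 4938 kept direction and side of the threshold, 109 lost the call, 52 gained it, and 55 turned direction, 0 of these from a called value. In shACSL5+PA minus shACSL5, library sizes alone turned RPL26 to -4e-04, RPLP2 to -0.0182, RPS27A to -0.0017 and RPSA to -0.0121. Upper quartile factors turned RPL26 to -0.0029, RPLP2 to -0.0206, RPS27A to -0.0042, RPSA to -0.0146 and RPS6 to -0.0012. RPLP2 turned to -5e-04 with RLE factors, -0.0044 with TMM without ribosomal protein rows, -6e-04 with DESeq2 and -0.0047 with the 2 groups alone, and RPS27L to 0.0066 without a filter and 8e-04 with the CPM filter. Without the 2 high libraries RPL11 turned to -0.0084, RPL3 to 4e-04, RPLP2 to -0.0205 and RPS27A to -0.0067. Leaving out 1 library at a time, RPL22 ran from -0.1029 to 0.028, RPS27L from -0.0678 to 0.0457, RPL3 from -0.033 to 0.0032, RPLP2 from -0.0205 to 0.0237, RPL11 from -0.0085 to 0.0978, RPS27A from -0.0067 to 0.0379, RPSA from -0.0057 to 0.0203 and RPL36AL from -0.0975 to 0.0261. In shACSL5+PA minus shControl+PA RPL22L1 ran from -0.0948 to 0.1199, RPL7 from -0.0435 to 0.0027 and RPL26 from -0.013 to 0.0329, with 0.0396 without the 2 high libraries. In the interaction RPL39 ran from -0.092 to 0.0624, with 0.0115 under library sizes alone, and RPL39L from -0.1674 to 0.0348.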
